A study of Mus musculus with 52 samples.

Results

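The Myc, Max and Mxd network is a set of transcription factors that compete for the same DNA sites. Its 6 members followed here, Myc, Max, Mxd1, Mxd4, Mxi1 and Mnt, are 6 of the 18193 genes that the arrays measured with a probe set annotated to exactly 1 gene. They were chosen by name. Where a gene had several such probe sets, the brightest on average was read. The samples were livers of male C57Bl6/N mice, 8 to 12 weeks old per the series' design text, from untreated animals or from animals killed after partial hepatectomy, an operation that removes 2/3 of the liver and leaves the rest to regrow. The mice carried no engineered allele that the labels name, and they ate a standard diet before and after the operation. There were 5 untreated controls. After surgery, 3 arrays came from 1 hour, 11 from 24 hours, 2 from 2 weeks and 3 from 3 months, and 4 arrays each from 6, 12 and 48 hours, from 3 and 4 days, and from 1 and 4 weeks. There was no sham-operated group among the labels, so anaesthesia and surgery cannot be told apart from loss of liver tissue. The labels number the replicates without tying each array to a separate animal, and a p-value therefore speaks of the spread among these arrays.

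Max is the shared partner of the network. A dimer of Myc and Max binds the E-box sequence CACGTG and recruits coactivators, which raises transcription of genes for ribosome assembly, nucleotide and polyamine synthesis and cell growth. Dimers of Max with Mxd1, Mxd4, Mxi1 or Mnt bind the same sequence and recruit the Sin3 corepressor with histone deacetylases, which lowers transcription there. Myc is an immediate early gene, known to be induced in liver soon after resection, and its RNA and protein are short-lived. Mxd genes are known for rising as cells stop dividing and differentiate, while Mnt and Max are present in most cells.

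The network's own binding motif is shown first, because it is the sequence over which the members compete. In RefSeq promoter windows of GRCm38.p6, which run from 250 bases before a start site to make 300 bases in all, 5 of the 6 members had a window. CACGTG, which reads the same on both strands, was found in 3 of those 5 genes, in 6 of the 21 genes with a window on a list of genes known to be activated by Myc, and in 8.09% of all genes with a window. A match describes the letters of a window and is no evidence of binding. The 3 member sites, followed by those of 2 activated genes called higher at both 6 hours and 3 months (the translation factor gene Eif4e and the lactate dehydrogenase gene Ldha), are given from 5′ to 3′ on the gene's strand with the motif in capitals.
Max, chr12:76962234-76962263, minus strand, motif 3 bases before the start: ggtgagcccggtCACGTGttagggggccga
Mxd4, chr5:34187912-34187941, minus strand, motif 219 bases before the start: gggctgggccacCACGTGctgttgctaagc
Mnt, chr11:74830789-74830818, plus strand, motif 123 bases before the start: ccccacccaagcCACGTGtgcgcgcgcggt
Eif4e, chr3:138527192-138527221, plus strand, motif 64 bases before the start: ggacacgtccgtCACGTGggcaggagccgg
Ldha, chr7:46845744-46845773, plus strand, motif 48 bases before the start: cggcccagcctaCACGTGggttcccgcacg
Eif4e and Ldha each had a second match in their windows. The windows of Mxd1 (1) and Mxi1 (3) held no match. Distances are from the start site on which each window is built, which for Max and Mnt lies inside the outer bounds of the gene given further on.

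The values are log2 probe set summaries, so a difference of 1 is a doubling of signal, and a level can be compared between groups but not between genes. Array medians lay between 3.89 and 4.10. Signs of sample quality and cell make-up differed between groups. Spiked hybridization controls averaged 10.85 ± 0.29 (SD) on the control arrays and 9.85 on both the 1-week and the 3-month arrays. The upper quartile of all genes on an array was 6.57 to 6.84 in the controls, 7.14 to 7.16 at 1 week and 6.95 to 7.19 at 3 months. Markers of Kupffer cells, the resident macrophages of the liver, were higher after surgery, with 9 of 10 called at 6 of the times, including 24 hours, 1 week and 3 months, and the 6 hepatocyte markers averaged 12.86 to 13.03 in every group. In bulk tissue, more cells of a type and more RNA per cell cannot be told apart. Some arrays went against their labels or stood apart. The 24-hour replicates 9, 10 and 11 had Xist, an RNA of the inactive X chromosome, at 9.12 to 9.48 although labelled male. The 4-week replicate 1 correlated at -0.50 with the rest of its own group and at 0.94 with the 12-hour group, over deviations of genes from their means. The 1-week replicate 4 correlated at -0.28 with its own group and at 0.38 with the 12-hour group. Control replicate 1 and 24-hour replicate 1 had the widest gaps between 3′ and 5′ Gapdh signal, at 2.56 and 2.32. The 24-hour replicates 2 and 5 correlated at 0.20 with their own group and at 0.57 and 0.55 with the 48-hour group. Own-group correlations were also low for 3-day replicate 2 (0.13), 1-week replicates 1 and 2 (0.17 each) and 4-day replicate 4 (0.20). These arrays and the 24-hour replicates 2 and 5 were not counted among the 7 arrays that stood apart. Every 1-week array and every 4-week array was closer to another group than to its own. Each call of a member against control or between times is also given without the 7 arrays, and so are those counts and calls of other listed genes given here that they changed by more than 1.5 times or ended, a comparison added after seeing the data.

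Across the 11 times, 3 of the 6 members changed by the moderated F test of limma, beside 64.6% of all genes. These were the antagonists Mxd1 (adjusted p = 0.000185), Mxi1 (adjusted p = 0.00028) and Mxd4 (adjusted p = 0.00822). Max (adjusted p = 0.081), the remaining antagonist Mnt (adjusted p = 0.088) and Myc (adjusted p = 0.321) did not pass. The highest and lowest group means were 1.66 log2 units apart for Myc, 1.27 for Mxd1, 1.20 for Mxd4, 0.84 for Mxi1, 0.64 for Max and 0.59 for Mnt. Myc thus had the widest span of the 6 and the highest p. Its arrays also spread most within groups, with a pooled SD of 0.78. That spread was wider than in 98.4% of genes, and the other 5 members had pooled SDs of 0.25 to 0.33. Ranked by level, no difference between neighbouring groups passed for any member in the 66 comparisons of neighbours in the order.

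**Figure D1:**
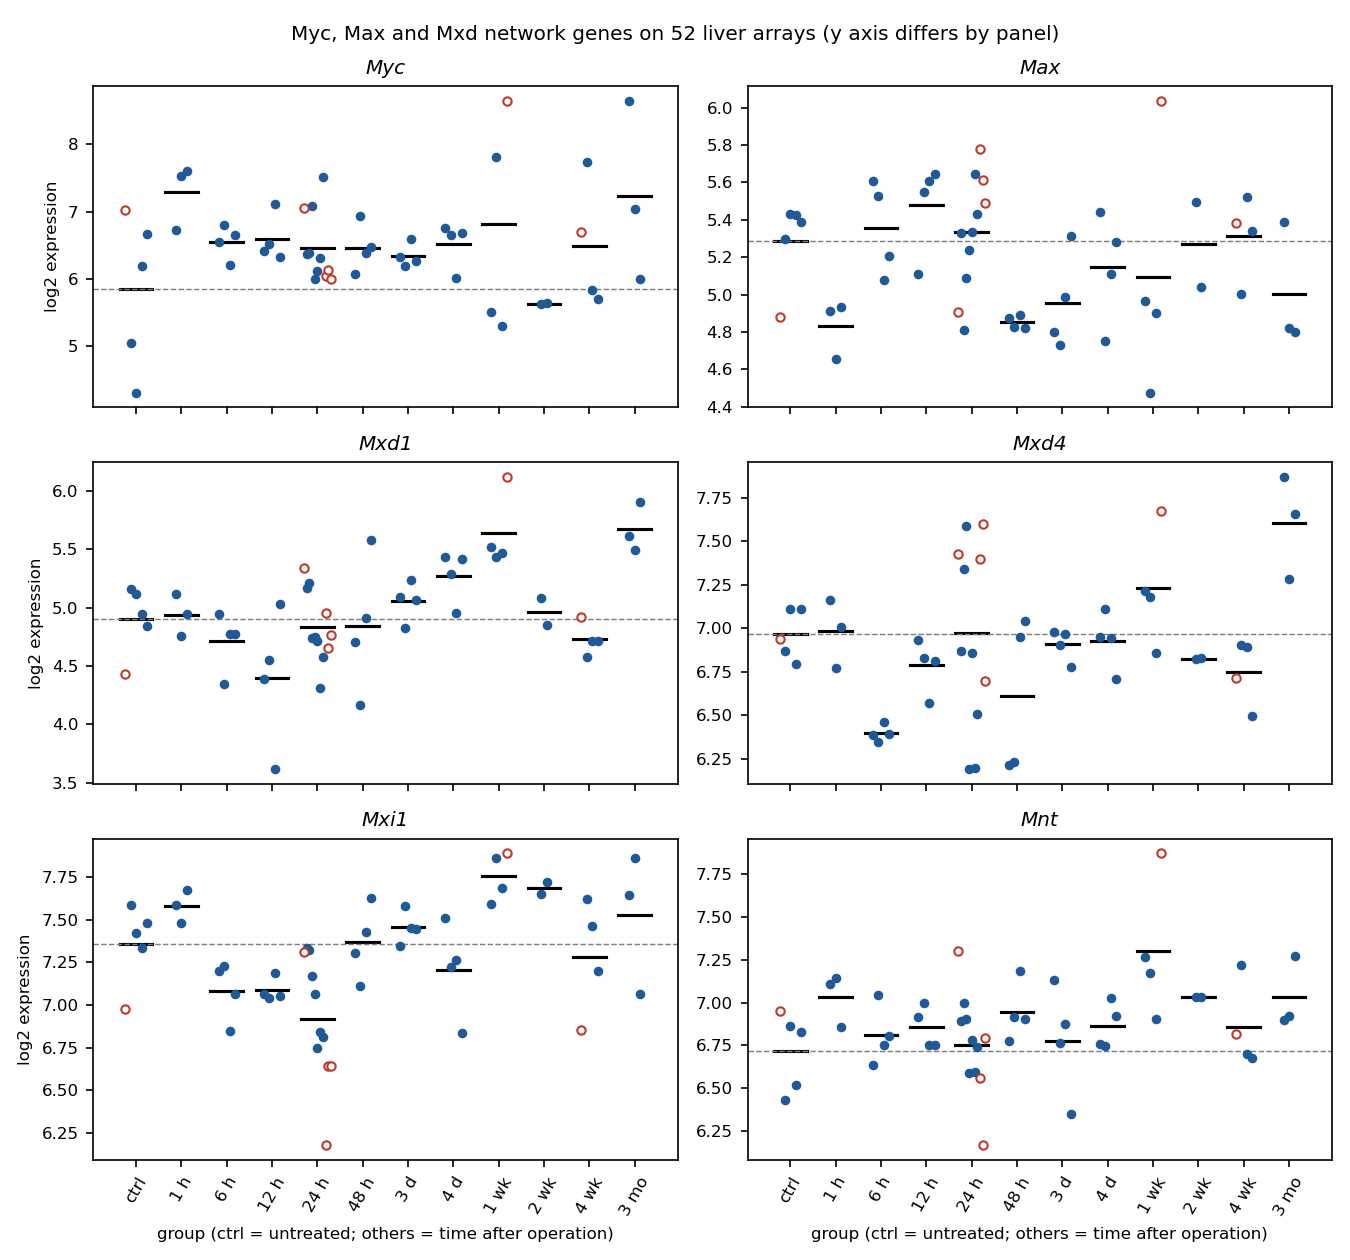
Log2 expression of the 6 members on each of the 52 arrays, by group in order of time after partial hepatectomy (ctrl, untreated). Points are arrays, open red points the 7 arrays that stood apart, bars group means and the dashed line the control mean; Myc spreads from 4.31 to 7.02 in the controls, while Mxd1 at 1 week and 3 months lies wholly above the control arrays.

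Against untreated liver, no member was called at most times. None of the 6 passed at 1 hour, when 5.04% of all genes were called, at 6 hours (22.0% of genes), 12 hours (29.9% of genes) or 48 hours (30.8%). The same held on day 3 (39.4%) and day 4 (32.8% of genes), and for 2 weeks (3.41%) and 4 weeks (14.7%). At 24 hours Mxi1 alone was called, and it fell, beside 31.7% of all genes called. At 1 week Mxd1 and Mnt rose, beside 36.7% of all genes, and at 3 months Myc, Mxd1 and Mxd4 rose, beside 30.1%. In all, 6 of the 66 comparisons of a member with untreated liver passed. With so few members, these shares do not set the network apart from other genes.

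**Figure D2:**
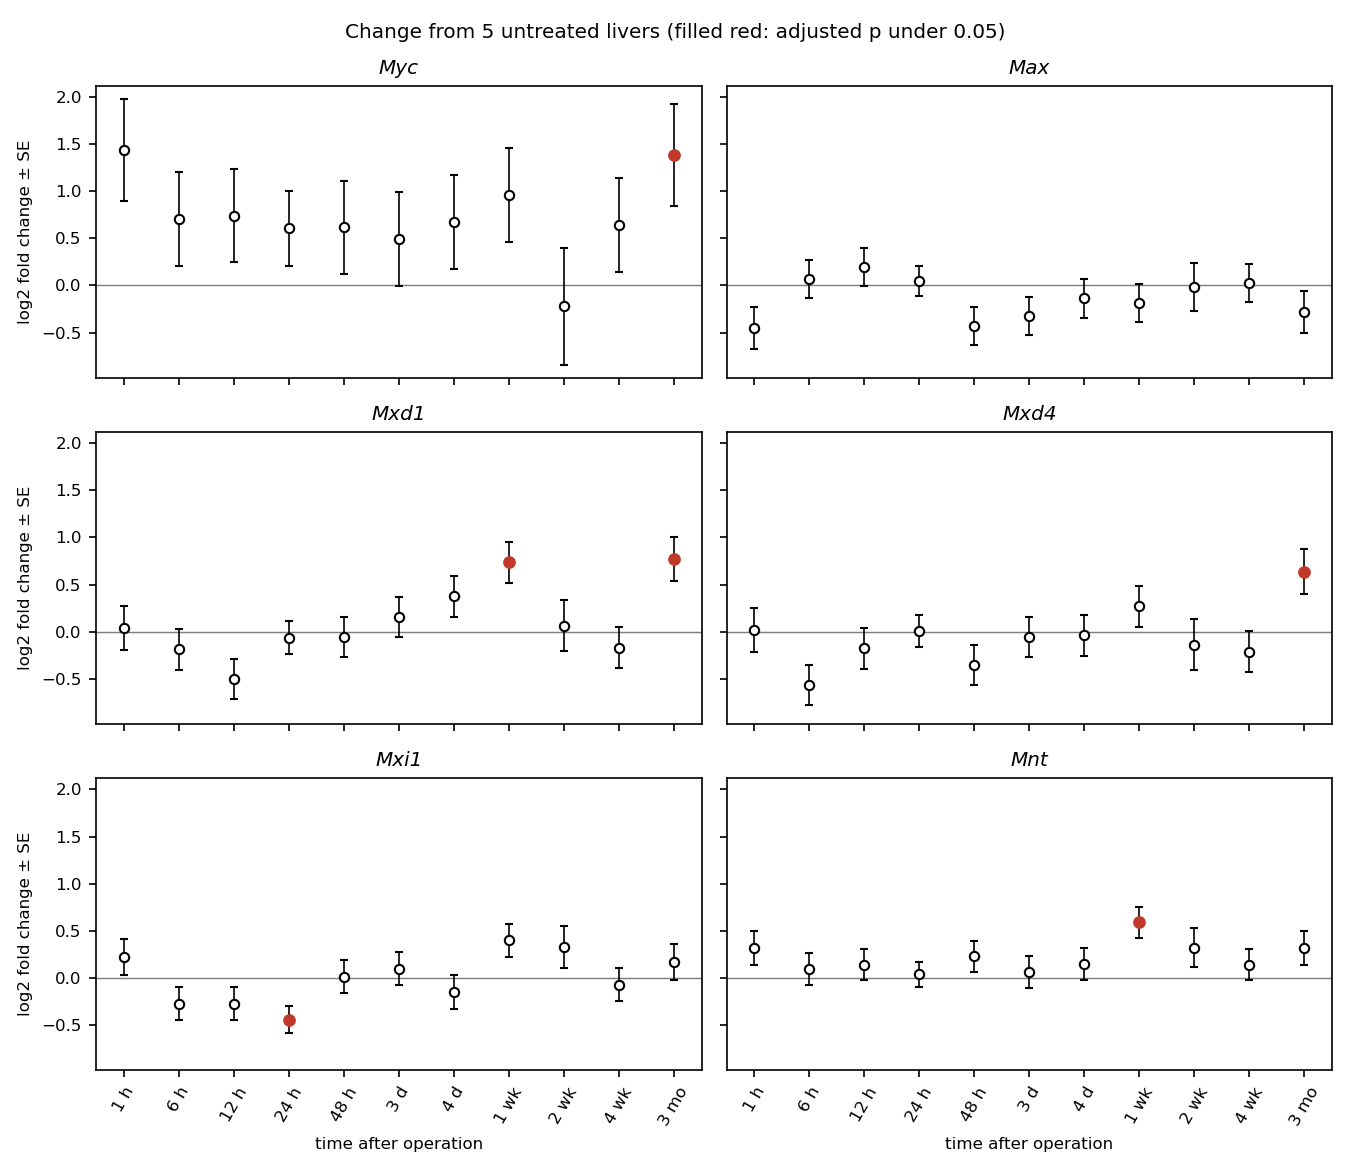
Log2 fold change from the 5 untreated livers, with its standard error, for each member at the 11 times. Filled red points passed an adjusted p of 0.05 over all genes: Mxi1 at 24 hours, Mxd1 and Mnt at 1 week, and Myc, Mxd1 and Mxd4 at 3 months.

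Myc, the activator of the network (gene ID 17869, chr15:61985341-61990361), had a single probe set. Its log2 level in the 5 untreated livers was 7.02, 5.05, 4.31, 6.20 and 6.67. At 1 hour it was 6.73, 7.53 and 7.61, at 6 hours 6.56, 6.80, 6.21 and 6.66, and at 12 hours 6.42, 6.52, 7.11 and 6.33. All 3 arrays at 1 hour lay above the control mean and 2 of them above every control array, and at 6 and 12 hours all but 1 array lay within the upper part of the control range. The difference from control was 1.44 ± 0.54 (SE) at 1 hour, with an adjusted p of 0.122 in limma, and 0.70 ± 0.50 and 0.74 ± 0.50 at 6 and 12 hours. Control replicate 1, with the highest Myc of its group, was among the arrays that stood apart. Without the 7 such arrays the 1-hour difference was 1.73 ± 0.51 and passed (adjusted p = 0.0432). With arrays weighted by how closely they followed the fitted group means, the 1-hour difference was 1.69 ± 0.45 (adjusted p = 0.00795). Under the same weights Myc also passed at 6 hours (0.97, adjusted p = 0.0375) and 12 hours (1.01, adjusted p = 0.0465). Beyond these settings, none tried gave Myc a call at 1, 6 or 12 hours. The weights passed all 6 members by the F test, against 3 in the main fit.

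Between 24 hours and 4 days, when hepatocytes replicate DNA and divide, Myc lay above the control mean on every array. The control median was higher than that mean, at 6.20, and each of these groups held arrays below it. All arrays at 48 hours, 3 days and 4 days lay within the control range of 4.31 to 7.02, as did most at 24 hours. The 11 arrays at 24 hours had a lowest value of 6.00, a median of 6.32 and a highest of 7.51. The 4 at 48 hours were 6.08, 6.93, 6.38 and 6.48, and those at 3 days 6.33, 6.19, 6.60 and 6.26. Against the control mean of 5.85 no difference passed, with values of 0.61 ± 0.40, 0.62 ± 0.50 and 0.50 ± 0.50. The spread between arrays was 0.18 (SD, n = 4) at 3 days and 1.14 (SD, n = 5) in the controls. At 4 days Myc was 6.75, 6.65, 6.02 and 6.68.

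At the late times Myc varied widely between arrays of the same group. At 1 week it was 5.50, 7.81, 5.30 and 8.65, so that 2 arrays lay below the control mean and 2 above every control array. At 2 weeks both arrays were low, at 5.63 and 5.64, and at 4 weeks the values were 6.71, 7.74, 5.83 and 5.71. The 1-week difference from control was 0.96 ± 0.50 (adjusted p = 0.124) and turned on single arrays, being 1.40 (adjusted p = 0.0326) without 1-week replicate 1 and 1.47 (adjusted p = 0.0247) without replicate 3. At 3 months Myc was 8.65, 7.05 and 6.00, a mean of 7.23 ± 1.33 (SD, n = 3) against 5.85 ± 1.14 (SD, n = 5), and the groups overlapped. The difference of 1.38 ± 0.54 passed narrowly (adjusted p = 0.0483). It was 0.67 (adjusted p = 0.448) without 3-month replicate 1 and 1.48 (adjusted p = 0.0817) without replicate 2. Without control replicate 2 it was 1.18 (adjusted p = 0.109), and without control replicate 3 it was 1.00 (adjusted p = 0.164). Without the 7 arrays that stood apart it was 1.67 (adjusted p = 0.0131). It kept its call in 5 of 11 other settings of the processing, and with quantile normalization it was 1.17 (adjusted p = 0.109).

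Max, the obligate partner (gene ID 17187, chr12:76937269-76962323), was read from its only probe set and passed at no time. The control arrays were 4.88, 5.30, 5.43, 5.42 and 5.39, of which the low one is replicate 1. Max was 4.91, 4.66 and 4.93 at 1 hour and 4.87, 4.83, 4.89 and 4.82 at 48 hours, below each control array but replicate 1. Differences from control were -0.45 ± 0.22 (adjusted p = 0.282) at 1 hour and -0.43 ± 0.20 (adjusted p = 0.101) at 48 hours. At 12 hours, where its mean was highest, Max was 5.11, 5.55, 5.61 and 5.64, a difference of 0.19 ± 0.20. Left without the 7 arrays that stood apart, Max passed as lower at 48 hours (-0.53, adjusted p = 0.0155), 3 days (-0.43, adjusted p = 0.04) and 1 week (-0.60, adjusted p = 0.0116). At 1 week the 4 arrays were 4.97, 4.48, 4.90 and 6.04, and leaving out replicate 4 alone gave -0.50 (adjusted p = 0.0369).

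Mxd1, also called Mad1, is the founding antagonist of Myc (gene ID 17119, chr6:86647044-86669234). Untreated livers had 4.43, 5.16, 5.11, 4.94 and 4.84. At 12 hours, the group with the lowest mean, Mxd1 was 4.39, 4.55, 3.62 and 5.03, and at 1 week it was 5.52, 5.43, 5.47 and 6.12. Each 1-week array lay above all 5 control arrays, whereas the 12-hour arrays overlapped them. Mxd1 rose by 0.73 ± 0.21 at 1 week (adjusted p = 0.00628). Replicate 4, which stood apart, held the highest value, and the difference was 0.57 (adjusted p = 0.0495) without it. Without all 7 such arrays it was 0.46 (adjusted p = 0.139).

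Mxd1 was within the control range at 2 weeks (5.08 and 4.85) and 4 weeks (4.92, 4.58, 4.71 and 4.71), where differences that did not pass were 0.06 ± 0.27 and -0.17 ± 0.21. At 3 months it was 5.62, 5.49 and 5.90, above every control array and every 4-week array. It rose by 0.77 ± 0.23 against control (adjusted p = 0.011), though without 3-month replicate 3 the value was 0.65 (adjusted p = 0.0657). Without the 7 arrays that stood apart it was 0.66 (adjusted p = 0.0312). The 12-hour difference was -0.50 ± 0.21 (adjusted p = 0.0723). It passed as lower without 12-hour replicate 4, at -0.71 (adjusted p = 0.0135), and without control replicate 1, at -0.62 (adjusted p = 0.0355). At 4 days Mxd1 was 5.43, 5.29, 4.96 and 5.42, a difference of 0.37 ± 0.21 that did not pass.

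Mxd4, an antagonist found mainly in differentiated cells (gene ID 17122, chr5:34176580-34187710), was 6.94, 6.87, 7.11, 6.80 and 7.11 in untreated liver. At 6 hours its 4 arrays were 6.39, 6.35, 6.46 and 6.39, a tight group below every control array. The difference was -0.57 ± 0.22 and just missed the threshold (adjusted p = 0.0531). Without the 7 arrays that stood apart it was -0.57 (adjusted p = 0.0377), and in a fit of the 2 groups alone it kept its size with an adjusted p of 0.00066. At 3 months Mxd4 was 7.87, 7.28 and 7.65, above every control array. It rose by 0.64 ± 0.24 (adjusted p = 0.036). The call ended without 3-month replicate 1 (0.50, adjusted p = 0.187) or 3 (0.61, adjusted p = 0.0916), and without control replicate 1 (0.63, adjusted p = 0.0601), 2 (0.61, adjusted p = 0.0574) or 4 (0.59, adjusted p = 0.0652). Without all 7 arrays that stood apart it was 0.63 (adjusted p = 0.0298), and with quantile normalization 0.28 (adjusted p = 0.361). The 11 arrays at 24 hours ran from 6.19 through a median of 6.87 to 7.60, on both sides of the control range, and the 48-hour arrays fell into a low and a high pair at 6.22 and 6.23 and at 6.95 and 7.04.

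Mxi1, also called Mad2 (gene ID 17859, chr19:53310128-53373293), was 6.97, 7.59, 7.42, 7.34 and 7.48 in untreated liver. It was 7.20, 7.23, 6.85 and 7.07 at 6 hours and 7.06, 7.04, 7.19 and 7.05 at 12 hours, all below the control mean of 7.36. At 24 hours the lowest of 11 arrays was 6.18, the median 6.84 and the highest 7.33. Every 24-hour array was below the control mean, and the groups overlapped because control replicate 1 was low as well. Mxi1 fell by 0.45 at 24 hours (SE 0.14, adjusted p = 0.0134). The 3 lowest arrays, at 6.18, 6.64 and 6.64, were those with Xist, and without them the difference was -0.28 (adjusted p = 0.0889). Without all 7 arrays that stood apart, control replicate 1 included, it was -0.41 (adjusted p = 0.0163), and in a fit of the 2 groups alone it was -0.45 with an adjusted p of 0.0639. Without 24-hour replicates 2 and 5 it was -0.51 (adjusted p = 0.00589), and with quantile normalization -0.70 (adjusted p = 1.01e-05).

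At 48 hours Mxi1 lay on both sides of the control mean, at 7.30, 7.11, 7.43 and 7.63. At 1 week its arrays were 7.59, 7.87, 7.69 and 7.89, all above the highest control array, but by little in replicate 1. That difference was 0.40 ± 0.18 and did not pass (adjusted p = 0.0704). It passed when both probe sets were averaged, at 0.39 (adjusted p = 0.00966), and was -0.02 (adjusted p = 0.92) with quantile normalization. At 2 weeks both arrays were high, at 7.65 and 7.72, a difference of 0.33 ± 0.22 (adjusted p = 0.487). At 3 months they were 7.65, 7.86 and 7.07, on both sides of the control mean.

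Mnt, the broadly expressed antagonist (gene ID 17428, chr11:74830806-74845725), was 6.95, 6.43, 6.86, 6.52 and 6.83 in untreated liver, the group with its lowest mean. At 1 week it was 7.27, 7.18, 6.90 and 7.87. Of these, 3 lay above every control array and replicate 3 lay within the control range. Mnt rose by 0.59 ± 0.17 at 1 week (adjusted p = 0.00495), which became 0.40 (adjusted p = 0.0657) without replicate 4 and 0.46 (adjusted p = 0.0233) without all 7 arrays that stood apart. With quantile normalization it was 0.18 (adjusted p = 0.426). At 1 hour Mnt was 7.11, 7.14 and 6.86 and at 2 weeks 7.03 and 7.03, differences of 0.32 ± 0.18 and 0.32 ± 0.21 that did not pass. At 24 hours the 11 arrays ran from 6.16 through a median of 6.78 to 7.30, around the control values.

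Several measures differed from control at the times of the late calls. The mean level of the 10 Kupffer cell markers was 4.08 to 5.07 on the control arrays, 6.41 to 8.06 at 1 week and 6.39 to 7.56 at 3 months, with no overlap, and the upper quartile of all genes was shifted as given above. At 1 week the scavenger receptor gene Marco was 3.93 ± 0.53 higher and at 3 months the complement receptor gene Vsig4 was 3.44 ± 0.58 higher. The gap between 3′ and 5′ Gapdh signal was 1.12 to 2.56 on the control arrays and 0.58 to 0.72 at 1 week, with no overlap, and 0.61 to 1.38 at 3 months, overlapping the controls. Such shifts were also found at times without a call. At 4 days the upper quartile was 6.93 to 7.18 and the hybridization controls averaged 9.86. The Kupffer cell markers averaged 6.94 at 2 weeks, and the Gapdh gap averaged 0.65 at 3 days. The part of Kupffer cells and of RNA quality in the calls of Mxd1, Mnt, Mxd4 and Myc was not tested. With the hybridization controls as a covariate, none of the calls at 1 week or 3 months passed. That covariate ran from 10.60 to 11.27 on the control arrays, 9.66 to 9.97 at 1 week and 9.51 to 10.19 at 3 months. The control arrays overlapped neither group, so the covariate cannot be told apart from these comparisons. With it in the fit, Mxd1 was 0.48 ± 0.32 at 1 week and 0.52 ± 0.34 at 3 months. Mnt was 0.68 ± 0.25 at 1 week (adjusted p = 0.166).

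The antagonist genes have more than 1 probe set, and the sets did not always move together. For Mxd1, a set drawn from the same sequence record rose at 1 week by 0.44 ± 0.15 (adjusted p = 0.0174), while the third set was at -0.12. At 3 months these other sets were at -0.01 and -0.25, so the Mxd1 rise at 3 months rests on a single probe set. For Mxd4 the 3-month rise was found again in a second set, at 0.58 ± 0.19 (adjusted p = 0.0206), and the remaining sets were at 0.34 and -0.18. Mnt's second set was at -0.19 at 1 week, and it fell at 3 days by 0.36 on the log2 scale (adjusted p = 0.041). Mxi1's second set was at -0.16 at 24 hours, and its mean over all arrays, 4.05, is close to 4.04, the median level in untreated liver over all sets on the array. Low means over all arrays were also found for Mnt's second set (4.44) and the Mxd4 set at -0.18 (4.27). The 3 Mxd1 sets were close in brightness, at 4.96 for the set used and 4.90 and 4.77 for the others. When the sets of a gene were averaged, some calls ended and others were gained. Mnt at 1 week was 0.20 (adjusted p = 0.187), and at 3 months Mxd1 was 0.17 (adjusted p = 0.265) and Mxd4 0.34 (adjusted p = 0.0838). Mxd1 at 1 week (0.35, adjusted p = 0.00819) and Mxi1 at 24 hours (-0.30, adjusted p = 0.0135) kept their calls. Beside Mxi1 at 1 week, Mxd4 at 6 hours (-0.40, adjusted p = 0.03) and Mxd1 at 12 hours (-0.27, adjusted p = 0.0439) passed.

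**Figure D3:**
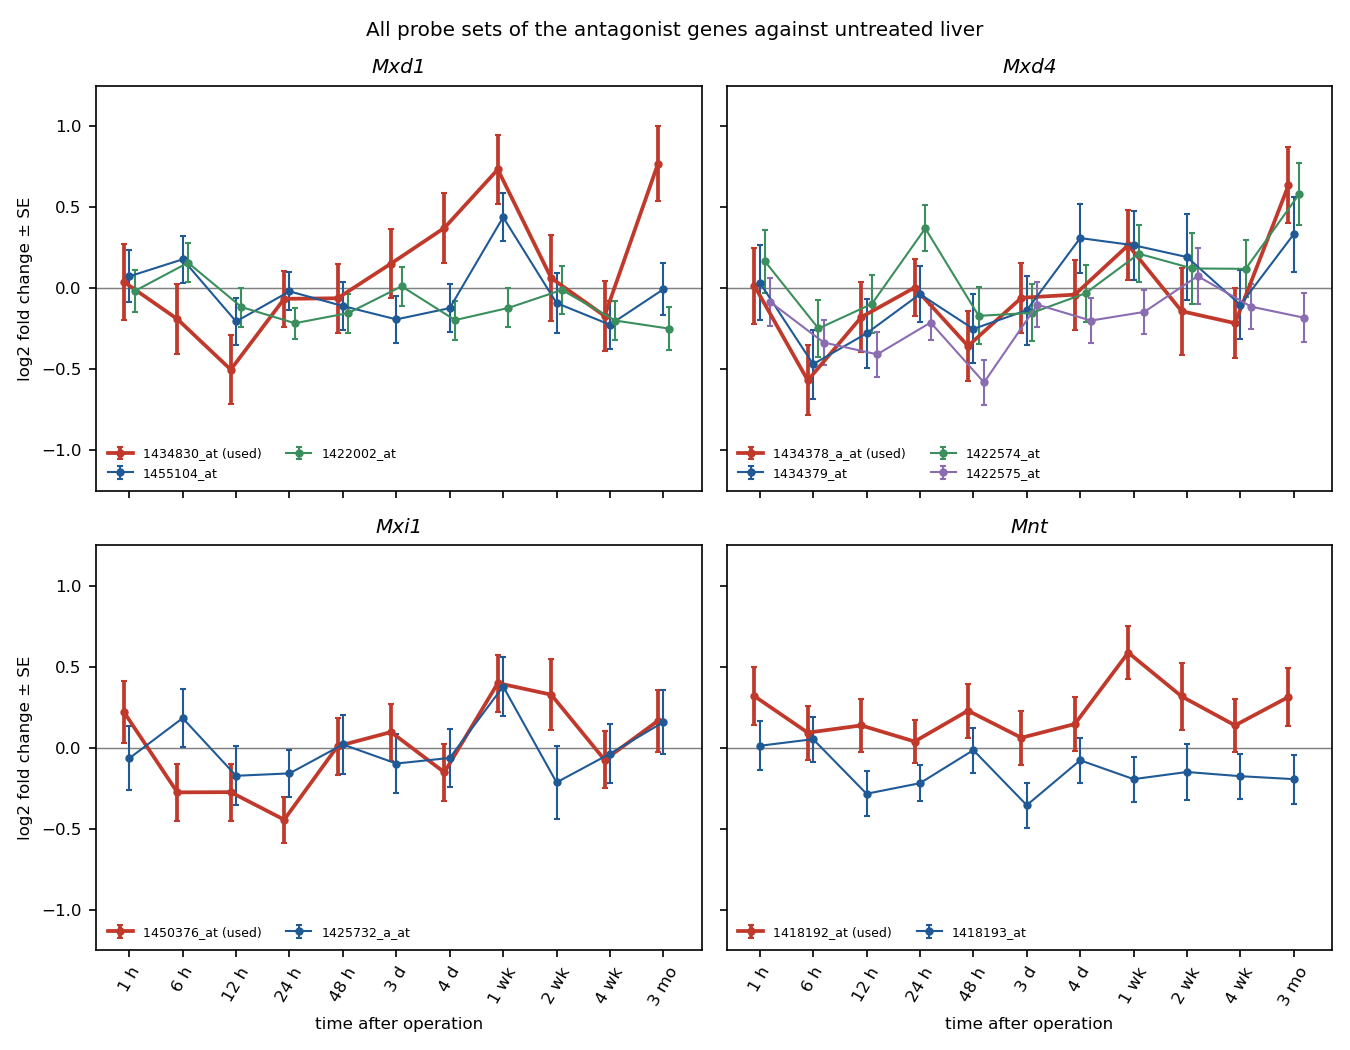
Log2 fold change from untreated liver, with its standard error, of every probe set of Mxd1, Mxd4, Mxi1 and Mnt at the 11 times; the thick red line is the set used for the gene. The Mxd1 sets are at 0.77, -0.01 and -0.25 at 3 months, whereas 3 of the 4 Mxd4 sets lie above 0 there.

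Between successive times, 1 of 60 comparisons passed. Mxd1 rose by 0.94 ± 0.24 from 4 weeks to 3 months (adjusted p = 0.0295), beside 2.39% of all genes called in that step. The groups did not overlap. Without 4-week replicate 1, the array nearest to the 12-hour group, the step was 1.00 (adjusted p = 0.0356), and without all 7 arrays that stood apart it was 1.00 (adjusted p = 0.0159). With probe sets averaged it was 0.37 (adjusted p = 0.0901), and with the hybridization controls as a covariate 0.86 (adjusted p = 0.0892). It did not pass without 3-month replicate 1 (0.97, adjusted p = 0.0657), 2 (1.03, adjusted p = 0.0526) or 3 (0.82, adjusted p = 0.126), nor without 4-week replicate 2 (adjusted p = 0.066), 3 (adjusted p = 0.0598) or 4 (adjusted p = 0.0699). No member passed from 1 to 6 hours (10.9% of genes called), 6 to 12 hours (9.38%), 12 to 24 hours (9.72%) or 24 to 48 hours (5.47%). None passed from 48 hours to 3 days (0.044%), 3 to 4 days (0%), 4 days to 1 week (0.022%), 1 to 2 weeks (0.594%) or 2 to 4 weeks (0.0055%), steps in which few genes of any kind were called. Myc's own step from 1 to 6 hours was -0.73 ± 0.57 (adjusted p = 0.559), and from 1 to 2 weeks it was -1.18 ± 0.64 (adjusted p = 0.323).

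Over the 12 group means, Mxd1 and Mxd4 had the most similar courses among the members, with a Pearson correlation of 0.79, and the deviations of the 52 arrays from their group means correlated at 0.48. Mxi1 and Mnt correlated at 0.76 over group means and at 0.21 within groups. Max correlated negatively with every other member over group means, from -0.56 with Mxi1 to -0.31 with Mxd4. Within groups its correlations with them lay between -0.18 and 0.12. None of these correlations was tested. Each of these figures shares the same arrays and normalization among its points. Among genes called by the F test whose group means spanned at least 1 log2 unit, those nearest in course over the 12 group means were Acvr2b (0.92), Mical1 (0.91) and Coro7 (0.91) for Mxd1. For Mxd4 they were Uhrf1bp1 (0.91), Fchsd2 (0.90) and Ncoa1 (0.89), for Mxi1 Selenoo, Ipmk and N4bp2l1 (each 0.90), and for Mnt Rbl2, Zfas1 and Snhg12 (0.86, 0.86 and 0.84). Max was nearest to Inhbe (0.82), Tstd2 (0.79) and Ap2b1 (0.78). Myc had the least similar neighbours, with Letm1 at 0.73, Mrps24 at 0.69 and Mrps18a at 0.69.

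Of the other 7 genes of the extended network, Mlxipl changed most. It encodes ChREBP, the glucose-responsive partner of Mlx, which works beside Myc and Max with a dimerization partner of its own. Its level was 9.72 ± 0.49 (SD, n = 5) in untreated liver, 7.55 ± 0.25 (SD, n = 4) at 6 hours and 7.09 ± 0.21 (SD, n = 4) at 12 hours. It fell by 2.63 at 12 hours (SE 0.35, adjusted p = 2.11e-07), and at 3 months the difference was -0.37 ± 0.38 and did not pass. Mycn, a close relative of Myc, fell at 3 months from 5.72 ± 0.26 (SD, n = 5) to 5.02 ± 0.19 (SD, n = 3), a difference of -0.70 ± 0.21 (adjusted p = 0.0124). At that time Mga, which joins Max to a Polycomb-type repressor, rose by 0.62 ± 0.21 (adjusted p = 0.0198), which was 0.52 (adjusted p = 0.0528) without the 7 arrays that stood apart. No gene of the 7 passed at 1 hour.

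Corepressor and coactivator genes changed in both directions. Of 8 Sin3 complex genes, 3 rose and 2 fell at 12 hours, and Sap30, which links Sin3 to histone deacetylases, rose by 1.12 ± 0.25 (adjusted p = 0.000573), while Rbbp4, a histone-binding subunit, fell by 0.98 (SE 0.14, adjusted p = 9.37e-07). At 1 week 3 rose and 1 fell, with Sap30 at 1.30 ± 0.25. Without the 7 arrays that stood apart, 2 rose there and 1 fell. Among 9 coactivator genes, Trrap, the scaffold of histone acetyltransferase complexes, fell by 1.30 at 6 hours (SE 0.24, adjusted p = 6.36e-05), and Ruvbl1, a chromatin ATPase, rose by 0.95 ± 0.18 at 12 hours (adjusted p = 7.55e-05). Of 7 measured genes for turnover of Myc protein, 4 rose at 48 hours. The highest was Skp2, a ubiquitin ligase subunit also tied to S phase, at 2.23 ± 0.40 (adjusted p = 4.5e-05). Of all genes, 17.9% were called higher and 12.0% lower at 12 hours, 17.4% higher at 48 hours, and 21.8% higher and 14.9% lower at 1 week.

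Genes known to be activated by Myc rose at times when Myc itself did not pass. With array weights Myc did pass at 6 and 12 hours, as given above. Of 27 such genes measured, 1 rose at 1 hour, beside 3.67% of all genes called higher. The number was 10 at 6 hours (11.4%), 22 at 12 hours (17.9%) and 19 at 24 hours (18.9%). The number was 14 on the 48-hour arrays (17.4%), 11 on day 3 (21.7%), 9 on day 4 (18.8%) and 14 after 1 week (21.8%). It was 0 after 2 weeks (2.80%), 6 after 4 weeks (9.33%) and 8 after 3 months (16.7%). Without the 7 arrays that stood apart, 0 rose at 1 hour, 1 after 2 weeks and 1 after 4 weeks, and the other counts lay within 1.5 times of these. Up to 2 genes of the list fell, namely 2 each in the 6-hour and 12-hour livers and 1 each on day 3, after 1 week and after 4 weeks. With the 7 arrays left out none fell after 1 week, and 1 fell on day 4 and 1 after 3 months. The median difference was 0.04 at 1 hour, when Myc had its highest mean, and 0.91 at 12 hours, against medians over all genes of 0.01 and -0.04. At 12 hours the transferrin receptor gene Tfrc rose by 2.40 ± 0.42 and Odc1, which makes polyamines, by 2.09 ± 0.44. Nop58, which guides ribosomal RNA methylation, rose by 2.06 ± 0.34, and the spermidine synthase gene Srm by 1.78 ± 0.39. Shmt2, a mitochondrial enzyme of serine metabolism, fell by 2.19 (SE 0.38, adjusted p = 1.56e-05). At 3 months Eif4e rose by 1.21 ± 0.24, Ccnd2, a D-type cyclin, by 1.01 ± 0.26, the chaperonin gene Hspd1 by 0.83 ± 0.22 and Ldha by 0.74 ± 0.23. These genes answer to other regulators too, and the part of Myc in their changes was not tested.

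**Figure D4:**
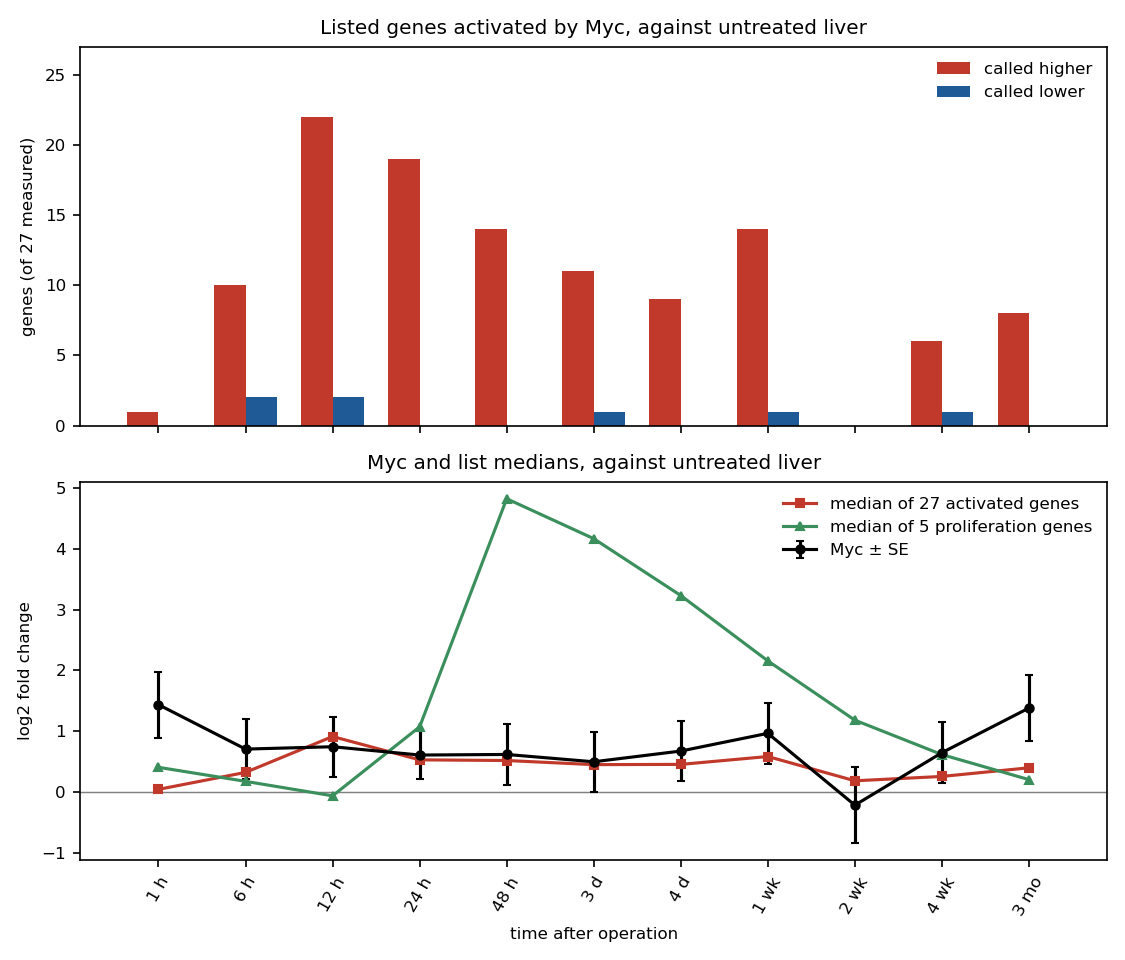
Top, number of the 27 measured genes on the list of genes activated by Myc that were called higher (red) or lower (blue) than in untreated liver at each time; bottom, log2 fold change of Myc with its standard error beside the medians of that list and of 5 proliferation genes. The activated genes reach 22 called higher at 12 hours, and the proliferation median peaks at 4.83 at 48 hours, while Myc lies between 0.50 and 0.74 from 6 hours to 4 days.

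Proliferation genes came later than this. None of 5 passed at 12 hours, 2 rose at 24 hours (1 without the 7 arrays that stood apart) and all 5 rose at 48 hours, with a median of 4.83, led by Mki67 at 5.83 ± 0.76 (adjusted p = 3.13e-07). All 5 remained called higher at 3 days, 4 days and 1 week, and none was called at 3 months, when Mxd1, Mxd4 and Myc were called. Genes known to be repressed by Myc moved both ways. Of 6, Cdkn1a, the cell cycle inhibitor p21, rose by 4.90 ± 0.58 at 6 hours (adjusted p = 1.61e-08) and Gas1, a growth arrest gene, fell by 2.90 (SE 0.31, adjusted p = 1.11e-09). At 3 months only Cdkn1b, the inhibitor p27, passed, and it fell by 1.06 (SE 0.24, adjusted p = 0.00104).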

How the data were processed

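Labelled liver RNA was read on 52 Affymetrix mouse expression arrays. The authors deposited log2 values, 1 per probe set and array, for which the submitters' processing notes name RMA and oligo (version 1.52.0). RMA evens out signal distributions among the arrays it is run on and so hides a shift common to most genes. The deposited values still differed between arrays in median and upper quartile, as given above. The set of arrays it was run on is not given. The number of arrays limits the precision.

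Of 45101 probe sets, 34945 named 1 gene, 932 several, 9160 none, and 64 were array controls. Symbols were updated through GRCm38.p6 for 18032 of 18193 genes. The network had 13 probe sets. All arrays entered a limma 3.58.1 fit of group means (R 4.3.3), with two-sided tests, Benjamini-Hochberg adjustment over all genes of a comparison, and calls at an adjusted p under 0.05. The 5 control arrays serve every comparison with control. The scripts were tested on simulated data. Members, gene lists, tests and alternatives were chosen with earlier results of these data known. Listed genes named are the called ones with the largest change per list and time, with the largest in the rarer direction, and the 3 nearest in course per member.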

Additional observations from a re-analysis of the deposited data

Results flagged for a closer look

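Among the 48 groups of 4 or 5 arrays examined, gene by gene, 4 held a value far from the rest of its group, and about 1 in 20 would do so by chance. Max was 4.88 in control replicate 1, below the other controls at 5.30 to 5.43. Mxd1 was 6.12 in 1-week replicate 4, above the others at 5.43 to 5.52. Mxi1 was 7.19 in 12-hour replicate 3, above 7.04 to 7.06. Myc was 6.02 in 4-day replicate 3, below 6.65 to 6.75. Control replicate 1 and 1-week replicate 4 were already among the arrays that stood apart.

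Mxd1 differed between the late times, with 3 months 0.94 above 4 weeks in the direct comparison (adjusted p = 0.0295, limma). For 3 other genes all arrays of some time lay above the control mean and all arrays of another time below it. Of such pairs of times, only the widest apart is given per gene. The means of Myc at 1 hour and 2 weeks were 1.66 apart, those of Mxd4 at 3 months and 6 hours 1.20 apart, and those of Mxi1 at 1 week and 24 hours 0.84 apart. Direct comparisons of the Mxd4 and Mxi1 pairs were run once after the levels were seen. They were dropped as outside the plan, and their values were not kept. The Myc pair was not tested.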

How the results depend on the processing

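The number of members called, of 6, depended on the processing as follows. The replicate number as a block gave 1 at 6 hours, 1 at 12 hours, 0 at 24 hours (Mxi1 at -0.12, adjusted p = 0.507) and 3 steps. Over 224 pairs of arrays with the same number, deviations from group means had a median correlation of -0.003, and 48 pairs exceeded 0.1, so the numbers were not taken to pair samples. Fitting only the groups compared gave 1 at 6 hours, 0 at 24 hours, 1 at 48 hours and 6 steps, and no F test over all times. Averaging the probe sets of a gene gave 1 at 6 hours, 1 at 12 hours, 0 at 3 months and 0 steps. Testing every probe set gave 2 steps, as did median centring, and a filter on low values gave 1 at 6 hours and 2 steps. Quantile normalization gave 1 each at 6 hours, 12 hours, 48 hours, 4 days, 1 week and 3 months, and 2 steps. Array weights gave 2 members at 1 hour and at 48 hours, 3 members at 6 hours and at 12 hours, 6 by the F test and 9 steps. The hybridization controls as a covariate gave 1 at 6 hours, 0 at 1 week and 0 at 3 months. At these times the covariate did not overlap between control and operated arrays, so it cannot be told apart from the comparison. Without the 24-hour arrays with Xist there were 0 at 24 hours and 2 steps, and without 24-hour arrays 2 and 5, 3 steps. Without the 7 arrays that stood apart, 1 member was called at each of 1 hour, 6 hours, 12 hours, 48 hours and 3 days, and 4 steps passed. Causes were not tested. With single arrays left out, counts ranged from 0 to 1 at 12 hours, 2 to 3 at 1 week, 1 to 3 at 3 months, 3 to 4 by the F test and 0 to 3 steps, and were otherwise the same. Myc at 3 months kept its call in 5 of 11 alternatives and Mxd1 at 1 week in 9 of 11. No called value changed sign. Of 1368 member values under alternatives, 103 changed sign while called under neither setting, the largest starting from 0.40. These were counted as moved, not as reversed, a choice made after the count was seen.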

Other observations

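Myc varied between arrays of the same group, and the genes whose deviations from group means ran closest to those of Myc over the 52 arrays were looked up after that spread had been seen. The search covered 793 genes whose deviations had an SD above 0.5 over the 52 arrays. The closest were the stress gene Gadd45g (Pearson correlation 0.62), the pro-apoptotic gene Bcl2l11 (0.57) and the smooth muscle actin gene Acta2 (0.55). Next came the signalling regulator Rgs2 (0.55) and the transcription factor gene Klf6 (0.51). On the opposite side stood Ppp1r3c, a glycogen-targeting phosphatase subunit (-0.54), and the cyclin gene Ccnd1 (-0.50). In the 1-week arrays, where Myc was 5.50, 7.81, 5.30 and 8.65, Gadd45g was 6.31, 8.98, 7.51 and 10.83 and Egr1, an immediate early gene, was 7.76, 10.50, 7.78 and 10.52. The 2 arrays with high Myc thus had the highest values of both genes. Egr1 was set beside Myc by name and was not among the closest genes found by the search. At 24 hours, replicate 8 had the highest Myc (7.51) but Egr1 at 8.01, rank 10 of 11. In 1-week replicate 4, which stood apart, Bcl2l11 was 8.50, against 5.59 to 5.84 in the rest of its group. Rgs2 was 8.28 there, against 3.97 to 4.74, and Klf6 8.96, against 5.47 to 6.23. In replicate 2, also high in Myc, Bcl2l11 was the lowest of the group. The correlations were not computed without replicate 4. At 3 months, with Myc at 8.65, 7.05 and 6.00, Gadd45g was 8.88, 8.31 and 7.94 and Egr1 9.92, 7.99 and 7.57. In the controls Egr1 was 10.63, 10.81, 10.59, 10.69 and 8.77, high in 4 of 5, among them the 2 with the lowest Myc. The correlations share arrays and normalization, and they describe these arrays only.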
